A study of Mus musculus with 19 samples.

Results

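The genes of the activator protein 1 (AP-1) transcription factors were examined for binding of YAP and TEAD in mouse liver. The 10 genes were Fos, Fosb, Fosl1 and Fosl2 of the FOS family, Jun, Junb and Jund of the JUN family, and their relatives Atf3, Batf and Jdp2. Each gene was taken with its body and 50 kb on either side in the mm9 assembly, and every peak of the 6 deposited lists that overlapped such a window was kept. The windows were 102 kb to 140 kb long and held 154 of the 82869 peaks of all lists. They were set beside the windows of all 22367 protein-coding genes, whose median length was 115 kb.

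AP-1 is a dimer of basic leucine zipper proteins. JUN proteins pair with each other or with FOS proteins, which need a JUN partner, and the dimer binds a short palindromic element found in many enhancers. Several of these genes, Fos, Fosb, Jun, Junb and Atf3 among them, are immediate-early genes: growth factor and stress kinases switch them on within minutes, and Fos and Jun are known to rise in the liver after partial hepatectomy. YAP has no DNA-binding domain and reaches chromatin through TEAD proteins, and AP-1 often occupies the same enhancers as YAP and TEAD.

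Chromatin immunoprecipitation and sequencing (ChIP-seq) had been performed on livers of C57BL/6 mice in 19 samples. All groups carried the ROSA26-rtTA-IRES-EGFP allele and received doxycycline food. WT livers had no YAP transgene and 7 days of doxycycline, and tetYAP livers expressed an activated form of YAP under doxycycline control and had received the food for 3 days (3 d) or 7 days (7 d). YAP and TEAD were each profiled in all 3 conditions, with 3 replicates per group and 4 for TEAD at 7 d. According to the study's methods, Cre driven by the albumin promoter released rtTA in hepatocytes, whereas whole liver was used for ChIP, so the other liver cells were present without the activated allele. There was no WT group with 3 days of doxycycline. The TEAD antibody had been raised against TEAD4 and is described as also recognizing TEAD1 and TEAD3. The labels gave no age. The peak lists hold no expression values, so the tissue could not be checked by its marker genes.

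The authors merged the replicates of each group before calling peaks, so there is 1 list per group, with no spread between replicates and no test between conditions. The lists held 110 to 1478 peaks for YAP and 5695 to 38984 for TEAD, from merged libraries of 34260362 to 55032002 tags. A peak's height is given as its pileup, the number of extended fragments that cover its summit. Pileups of single peaks are given as listed, without scaling to the size of the library, unless called normalized. The TEAD libraries held 35168765 tags for WT livers, 55032002 for 3 d and 38523843 for 7 d, so a smaller number at 7 d than at 3 d is not by itself a lower signal. The WT list also used another fragment length, and its pileups are read here for the presence of a peak and not for its height relative to the induced lists. Intervals given with pileups are 95% intervals of counting error alone. A list names only peaks that passed the caller's cutoff, and a site without a peak may still have been bound below it.

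A YAP peak was found in the windows of 6 of the 10 genes, and at 7 d alone. For 4 of the 6 the gene's own start was the nearest protein-coding start, and for Junb and Jund another gene's start was nearer. These sites carry the main finding, so 151 bases centred on the summit of the TEAD peak at each of them are printed from the plus strand of mm9, with every copy of the TEAD motif GGAATG, or its reverse complement CATTCC, in capitals.
Fos, chr12:86821001-86821151: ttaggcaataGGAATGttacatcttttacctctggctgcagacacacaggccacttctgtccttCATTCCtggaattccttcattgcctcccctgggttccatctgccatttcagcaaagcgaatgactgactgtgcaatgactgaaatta
Fosl2, chr5:32442180-32442330: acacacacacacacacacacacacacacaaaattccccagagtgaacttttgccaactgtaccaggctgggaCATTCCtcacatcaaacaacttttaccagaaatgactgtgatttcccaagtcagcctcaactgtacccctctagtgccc
Junb, chr8:87483897-87484047: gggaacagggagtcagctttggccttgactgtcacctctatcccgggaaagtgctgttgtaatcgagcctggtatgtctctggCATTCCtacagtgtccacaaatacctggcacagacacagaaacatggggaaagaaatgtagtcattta
Jund, chr8:73189690-73189840: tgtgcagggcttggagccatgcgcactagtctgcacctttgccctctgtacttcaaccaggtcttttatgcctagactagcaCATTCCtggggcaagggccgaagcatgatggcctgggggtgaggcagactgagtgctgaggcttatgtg
Atf3, chr1:193007406-193007556: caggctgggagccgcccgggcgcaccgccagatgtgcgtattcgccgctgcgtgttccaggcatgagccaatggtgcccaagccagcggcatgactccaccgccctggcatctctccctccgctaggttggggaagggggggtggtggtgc
Jdp2, chr12:86964766-86964916: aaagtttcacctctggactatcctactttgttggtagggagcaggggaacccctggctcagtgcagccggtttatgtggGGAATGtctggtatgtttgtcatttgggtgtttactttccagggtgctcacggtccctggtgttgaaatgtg

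The motif was found in 5 of the 6 sequences. The nearest copy was centred 8.5 bases from the summit at Fos, 0.5 at Fosl2, 10.5 at Junb, 9.5 at Jund and 6.5 at Jdp2. The site near Fos held another copy, centred 62.5 bases away. No copy of these letters was found in the printed sequence at Atf3, which says only that this window does not hold them. Neither the AP-1 motif TGANTCA nor the cAMP response element (CRE) motif TGACGTCA, each searched on both strands, was in any of the 6 printed sequences. YAP and TEAD summits were 3 bp to 62 bp apart at these sites.

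YAP peaks were counted first, list by list, in the windows of AP-1 genes. No YAP peak was called in any of the 10 windows in WT livers or at 3 d. Over all protein-coding windows, 0.21% had a YAP peak in WT livers and 0.264% at 3 d, so an empty count of 10 windows does not set the AP-1 genes apart. At 7 d, the windows of Fos, Fosl2, Junb, Jund, Atf3 and Jdp2 held 1 YAP peak each, 6 of 10 against 10.8% of all windows. The windows of Fosb, Fosl1, Jun and Batf held none. In terms of density, there were 0.534 YAP peaks per 100 kb of AP-1 window at 7 d and 0.106 per 100 kb over all windows. The 6 peaks had a normalized pileup, in fragments per 1000000 tags of the library, of 0.788 to 1.46. The lowest YAP peak called anywhere had a normalized pileup of 0.439 in the WT list and 0.552 in the 3 d list. The medians of those lists were 0.695 and 0.939. These heights do not show whether the 6 sites were bound there below the cutoff, since the lists hold only called peaks.

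TEAD peaks were more widespread. In WT livers, 6 of 10 AP-1 windows held a TEAD peak, against 37.8% of all windows, and the 4 without were those of Fos, Jun, Batf and Jdp2. At 3 d, 9 of 10 did, against 75.3% of all windows, and the exception was Batf. At 7 d, all 10 did, against 76.9%. The number of distinct TEAD peaks was 10 in WT livers, 65 after 3 d and 73 after 7 d. At equal list length, with only the strongest 5695 peaks of each list, there were 10, 11 and 9. The counts thus rose with the length of the full lists, which held 5695, 36446 and 38984 peaks. Summed over windows, where the peak shared by Jdp2 and Batf counts for each (74 at 7 d), the AP-1 genes had 0.890, 5.78 and 6.58 TEAD peaks per 100 kb across the WT, 3 d and 7 d lists, and all windows had 0.418, 2.70 and 2.78. For the WT list the caller had used fragments of 400 bp, compared with 207 bp at 3 d and 206 bp at 7 d, and the part of this setting in the lower WT counts was not tested.

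**Figure D1:**
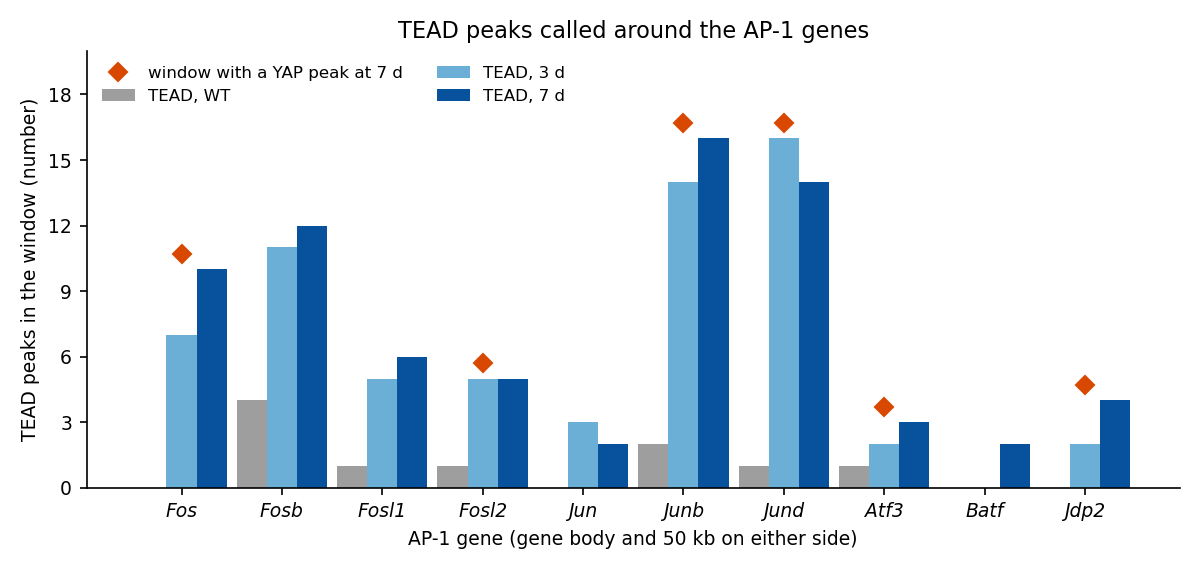
Number of TEAD peaks (vertical axis) in the window of each AP-1 gene (horizontal axis) in WT livers (grey), at 3 d (light blue) and at 7 d (dark blue), with a diamond over windows that held a YAP peak at 7 d. Junb and Jund had the most TEAD peaks at both times and carried a YAP peak, whereas Fosb had 12 TEAD peaks at 7 d and no YAP peak.

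The number of TEAD peaks differed widely between the genes. Junb had 2, 14 and 16 across the WT, 3 d and 7 d lists, and 1.85% of all windows had as many as 16 at 7 d. Jund had 1, 16 and 14, and Fosb had 4, 11 and 12. At the other end, Atf3 had 1, 2 and 3, Jun had 0, 3 and 2, and Batf had 0, 0 and 2. A count of 2 or more at 7 d was reached by 65.1% of all windows, so Jun and Batf were in the lower range. The 3 windows with the most TEAD peaks at 7 d also held other genes: 8 other protein-coding starts lay in the window of Junb, 6 in that of Fosb and 4 in that of Jund, against a median of 2 over all windows. The number of starts did not order the windows, since Fosl1 had 9 other starts and 6 TEAD peaks at 7 d, and Fos had no other start and 10 TEAD peaks. Of the 16 TEAD peaks around Junb at 7 d, 5 were at its own promoter and 7 at promoters of other genes. Of the 10 around Fos, 4 were at its own promoter and none at another.

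Among FOS family genes, Fos, the founding member, had the highest ratio of 7 d to 3 d in the 10 windows. Its YAP peak at 7 d lay 6.2 kb downstream of the start, between genes (chr12:86820762-86821249), with a pileup of 36, a fold enrichment of 7.86 over the local background, and rank 301 of 1478 by pileup. TEAD at this site had no peak in WT livers, a pileup of 43 after 3 d and 172 after 7 d. In the 3 d list this TEAD peak stood at rank 12224 of 36446, and at 7 d it stood at rank 617 of 38984. A further strong TEAD peak, 47.9 kb downstream of the start (chr12:86862489-86863017), had no peak in WT livers, 66 after 3 d and 142 after 7 d, with no YAP peak in any list. It was the highest TEAD peak of the window at 3 d, whereas the YAP site was the highest at 7 d. Peaks at the promoter of Fos, taken around any of its annotated starts, were weaker. They had pileups of 29 and 25 at 3 d and 19 to 55 across 4 peaks at 7 d. The peak of 55 had its summit in a coding exon 2.5 kb downstream, and the peak nearest the start had 38. A peak 11.5 kb upstream (pileup 58) was called at 7 d alone.

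Fosl2, which encodes the FOS relative FRA2, had its YAP peak inside the gene. This peak lay in an intron 3.3 kb from the start (chr5:32442000-32442366), with a pileup of 38, a fold enrichment of 8.30 and rank 243. TEAD at this site had a pileup of 64 in WT livers, 149 after 3 d and 157 after 7 d, and in each list it was the highest TEAD peak of the window. At the promoter of Fosl2, a TEAD peak had 27 at 3 d and 40 at 7 d. The intronic YAP site therefore had a TEAD peak in all 3 lists, whereas the YAP site near Fos had none in the WT list.

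Fosb and Fosl1, which encodes FRA1, had TEAD peaks but no YAP peak. For Fosb, the highest TEAD peak of each list lay at the edge of the window, at the promoters of Ppp1r13l and Cd3eap, with pileups of 43 in WT livers, 75 after 3 d and 71 after 7 d. Within Fosb, an intronic peak 1.3 kb from the start had 32, 70 and 69. At Fosl1, no peak of any list lay at the promoter or in the gene. Its highest TEAD peaks, with 30 in WT livers, 40 after 3 d and 39 after 7 d, were 40.7 kb to 41.8 kb away, at the promoters of Mus81 and Cfl1. At 7 d, 3 of the 6 TEAD peaks in the Fosl1 window were at promoters of these neighbours.

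Among JUN family genes, Junb and Jund each had a YAP peak at some distance, and Jun had none. The YAP peak in the Junb window lay 18.6 kb downstream of the start (chr8:87483814-87484208), at the promoter of Rnaseh2a, which encodes a subunit of ribonuclease H2. Its summit was in an intron of Rnaseh2a, 2.0 kb from the nearest Rnaseh2a start, and the TEAD summits there lay in a coding exon. The YAP peak had a pileup of 50, a fold enrichment of 10.26 and rank 84, the highest of the 6 YAP peaks. TEAD there had 111 in WT livers, 236 after 3 d and 268 after 7 d, with rank 128 of 5695, 105 of 36446 and 59 of 38984. Another TEAD peak, just past the end of Junb and 2.0 kb from its start, had 52, 109 and 95, or 1.98 and 2.47 normalized for the induced lists, and carried no YAP peak. At the promoter of Junb, 3 peaks at 3 d had pileups of 31 to 51 and 5 peaks at 7 d had 18 to 50.

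The YAP peak in the Jund window lay 31.9 kb upstream of the start (chr8:73189646-73189938), between genes, and 6.2 kb from the nearest start, that of Pgpep1. It had a pileup of 34, a fold enrichment of 7.42 and rank 376. TEAD at this site had 114 in WT livers, 203 after 3 d and 189 after 7 d, or 3.69 and 4.91 normalized for the induced lists, and in each list it was the highest TEAD peak of the window. A further TEAD peak at the promoter of the phosphodiesterase gene Pde4c had no peak in WT livers, 99 after 3 d and 82 after 7 d, or 1.80 and 2.13 normalized. Jun, in contrast, had 3 TEAD peaks at 3 d and 2 at 7 d, all within 2.0 kb of its start, with pileups of 23 to 37 and 33 to 39. These heights were near the medians of all TEAD peaks, 36 at 3 d and 33 at 7 d.

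Among the other AP-1 partners, Atf3, a stress-induced gene whose product can repress transcription, was the only gene of the 10 with a YAP peak at its promoter. The peak lay 241 bp upstream of the start (chr1:193007381-193007679), with a pileup of 27, a fold enrichment of 5.89 and rank 839, the lowest of the 6 YAP peaks. TEAD at the same promoter had 56 in WT livers, 117 after 3 d and 121 after 7 d. Jdp2, which encodes a JUN dimerization protein that can repress AP-1 targets, had its YAP peak in an intron 24.5 kb from the start (chr12:86964651-86965048), with a pileup of 41, a fold enrichment of 7.69 and rank 187. TEAD at that site had no peak in WT livers, 143 after 3 d and 261 after 7 d, where it stood at rank 74 of 38984. Batf, a partner of JUN known mainly from lymphocytes, had no peak before 7 d, and then 39 at a site shared with the Jdp2 window and 26 at the promoter of Mfsd7c.

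Fos, Jdp2 and Batf lie in 1 stretch of chromosome 12 that spans 235 kb. The windows of Jdp2 and Batf overlap by 53.2 kb and shared 1 TEAD peak at 7 d, while 22.1 kb separate the windows of Fos and Jdp2. None of the 3 windows held a TEAD peak in WT livers, which was also so for 62.2% of all windows. With a flank of 100 kb, each of the 3 held a WT TEAD peak. The YAP sites near Fos and in Jdp2 were the only 2 of the 6 without a TEAD peak in WT livers, and they are neighbours in this stretch, so they may not count as separate observations. The same share over all YAP peaks at 7 d was not counted, so this split has no background beside it. Junb and Jund are both on chromosome 8 but 14.3 Mb apart.

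**Figure D2:**
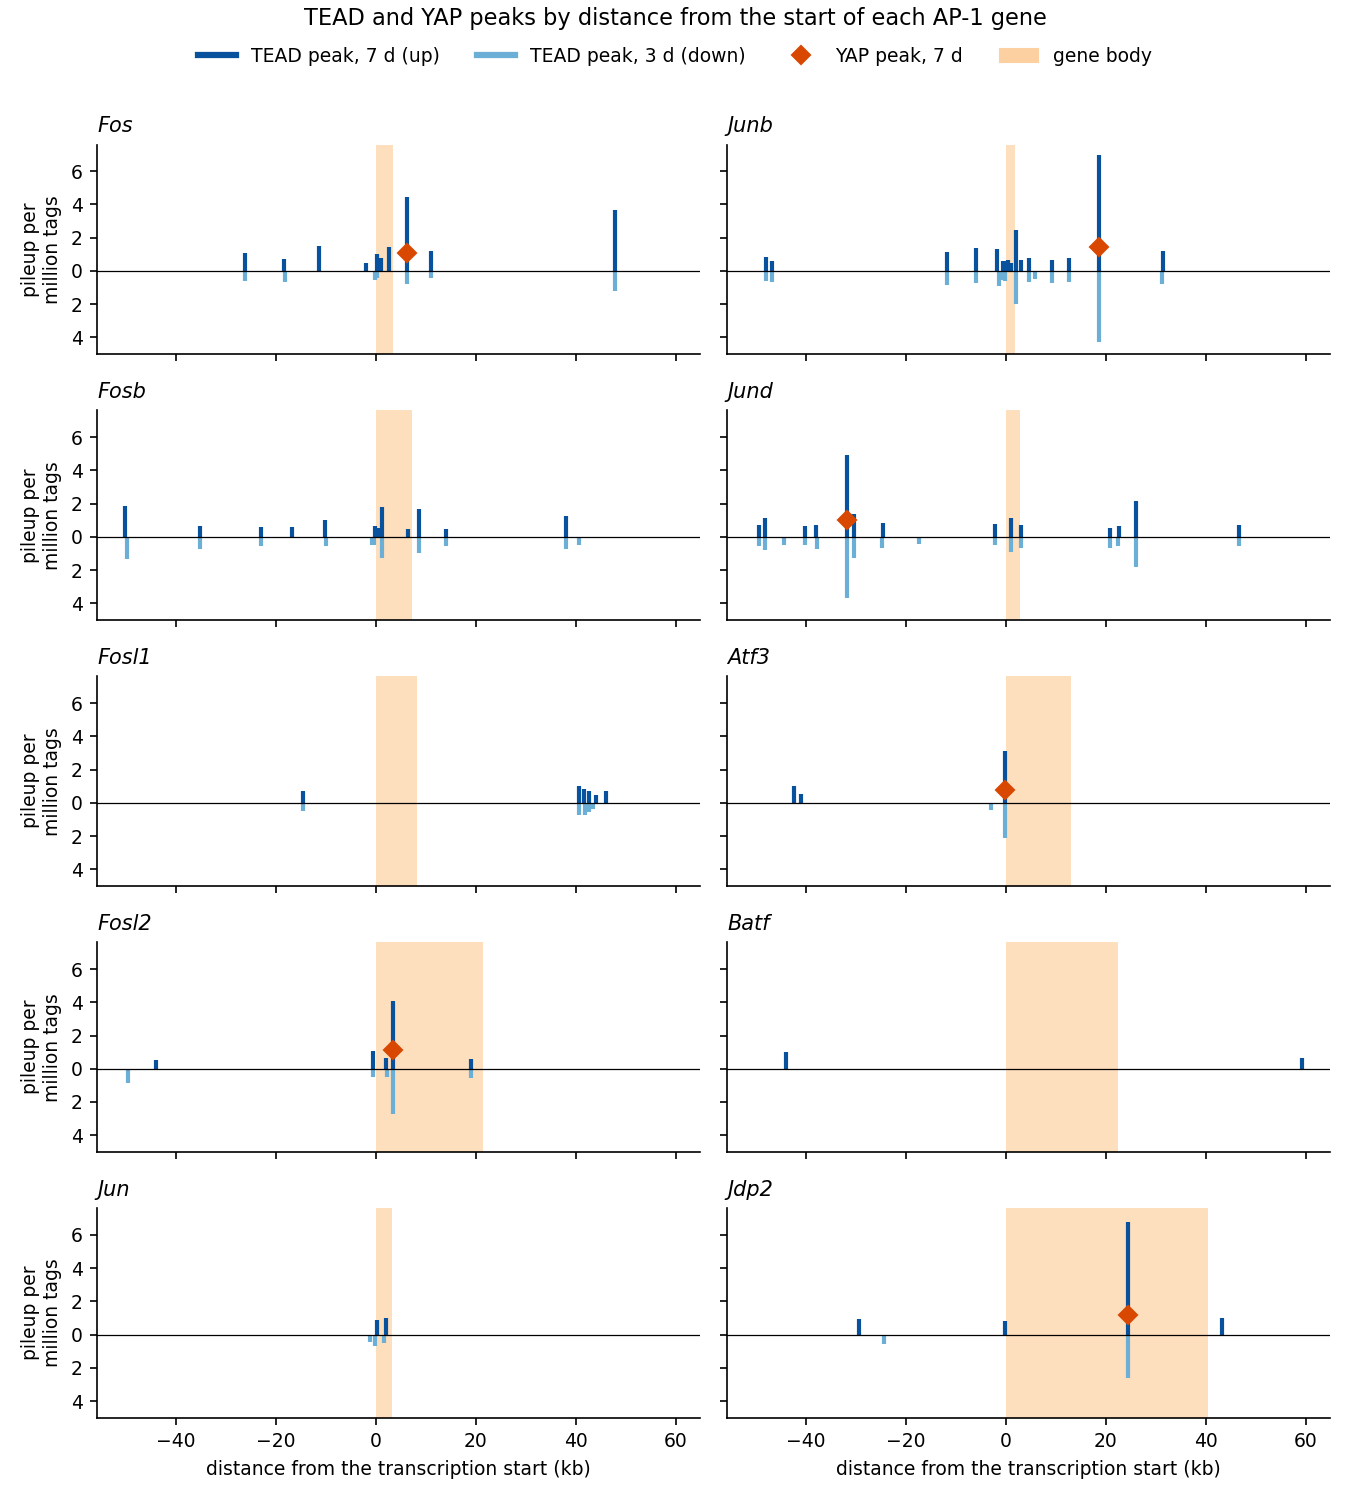
Normalized pileup (vertical axes, fragments per 1000000 tags) of each TEAD peak at 7 d (dark blue, upward) and 3 d (light blue, downward) and of YAP peaks at 7 d (diamonds), by distance of the summit from the transcription start in the direction of transcription (horizontal axes, kb), with the gene body shaded. WT peaks are not drawn, since they were called with another fragment length. The YAP diamonds sit on the tallest 7 d TEAD peak of 6 windows.

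At all 6 YAP sites the TEAD peak was the highest of its window at 7 d. Taken as a rank in the whole list, the highest TEAD peak of the window was among the top 5% of all TEAD peaks at 7 d for 6 of 10 genes, against 15.2% of all windows. These were the same 6 genes that had a YAP peak. The rank was within the top 0.151% for Junb, 0.190% for Jdp2, 1.06% for Jund, 1.58% for Fos, 2.14% for Fosl2 and 4.60% for Atf3. For the other 4 genes it was 14.6% (Fosb) and 39.0% (Fosl1, Jun and Batf, with the same pileup of 39). In all, 7 TEAD peaks of the AP-1 windows were in the top 5%, and 6 of them overlapped a YAP peak, against 44.6% of all TEAD peaks in the top 5%. The exception was the site 47.9 kb from Fos, with rank 1125. Among all 73 TEAD peaks of these windows, 6 overlapped a YAP peak (8.22%, Wilson interval 3.82% to 16.8%), against 3.58% of all TEAD peaks at 7 d. This interval covers counting error over peaks alone, and the share of all peaks lay just below its lower end.

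**Figure D3:**
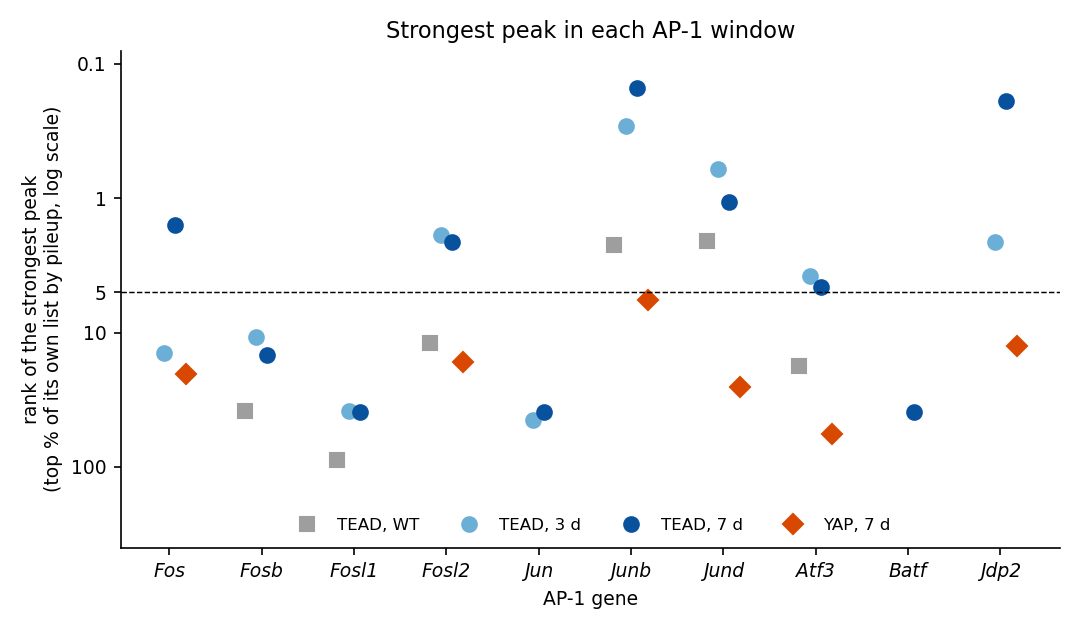
Rank of the highest peak in each AP-1 window (vertical axis, as top percent of its own list by pileup, log scale, strongest at the top) for TEAD in WT livers (squares), at 3 d and 7 d (circles) and YAP at 7 d (diamonds). The dashed line marks the top 5%. The 7 d TEAD circles of Fos, Fosl2, Junb, Jund, Atf3 and Jdp2 are above the line, and those of Fosb, Fosl1, Jun and Batf lie at 14.6% to 39.0%.

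TEAD signal at 7 d was then set against 3 d, to ask whether sites gained signal after the first days of induction. Pileups were divided by the tags of each library, since the fragment lengths of these lists were nearly equal. Of the 73 TEAD peaks at 7 d, 55 overlapped a 3 d peak. Their median ratio of 7 d to 3 d was 1.33, with quartiles of 1.11 and 1.49, and the median over all 27753 shared TEAD peaks was also 1.33. Values are therefore best read against 1.33 and not against 1. At least a 1.5-fold higher normalized pileup at 7 d was seen at 14 of the 55 (25.5%), against 33.6% of all shared peaks, and at least a 1.5-fold lower value at 1 of the 55, against 1.47%.

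The ratios of the 6 shared sites in the Fos window were spread widely, from higher than 17.3% of all shared TEAD peaks to higher than 99.9%. The YAP site 6.2 kb from Fos went from a normalized pileup of 0.781 at 3 d to 4.46 at 7 d, a ratio of 5.71 (4.07 to 8.18), the highest of the 6. The site 47.9 kb from Fos had a ratio of 3.07 (2.28 to 4.18), and a weaker peak 11.0 kb downstream had 2.80 (1.68 to 4.78). The peaks at the start of Fos and 26.2 kb upstream had 1.87 (1.12 to 3.15) and 1.82 (1.13 to 2.96), with intervals that included 1.33, and the peak 18.3 kb upstream had 1.01 (0.596 to 1.71), below the median. The YAP site in Jdp2 went from 2.60 to 6.78, a ratio of 2.61 (2.12 to 3.22). The ratios of 5.71, 3.07, 2.80 and 2.61 were the highest of the 10 windows, all in the same stretch of chromosome 12, and each of these 4 intervals was above 1.33.

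The YAP sites with a TEAD peak already in WT livers had smaller ratios. Whether this holds over all YAP sites was not tested. The ratio was 1.62 (1.36 to 1.94) for Junb, 1.51 (1.20 to 1.90) for Fosl2, 1.48 (1.14 to 1.92) for Atf3 and 1.33 (1.09 to 1.63) for Jund. Only the interval for Junb was above the median of all shared peaks. Over the 6 YAP sites the median ratio was 1.56, and it was 1.67 over all 1289 shared TEAD peaks with a YAP peak. The single peak past 1.5-fold in the other direction lay 3.0 kb from the start of Junb (0.315, 0.193 to 0.493). It overlapped the same broad 3 d peak (pileup 109) as the neighbouring 7 d peak at 2.0 kb, so the ratio compares summits of different positions.

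**Figure D4:**
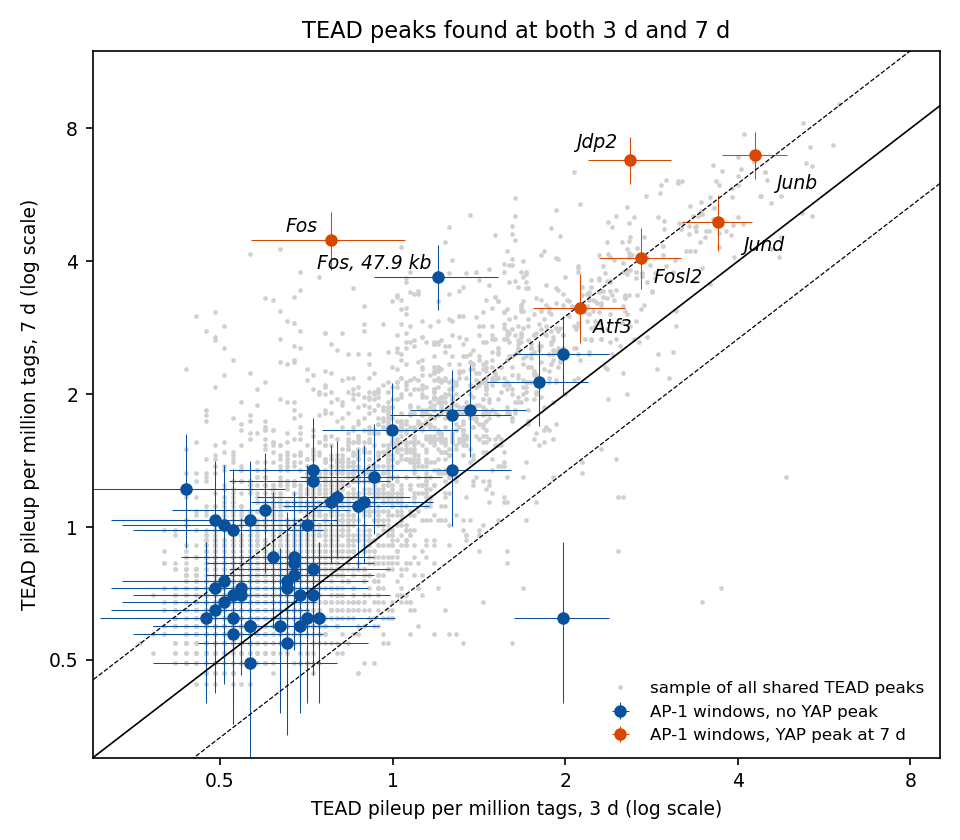
Normalized TEAD pileup, in fragments per 1000000 tags, at 3 d (horizontal axis) and 7 d (vertical axis), both on log scales, for the 55 shared peaks of the AP-1 windows with (orange) and without (blue) a YAP peak at 7 d, over a sample of all shared TEAD peaks (grey). Bars are 95% counting intervals, the solid line marks equal values and the dashed lines 1.5-fold. The labelled Fos and Jdp2 sites lie above the upper dashed line, with ratios of 2.61 to 5.71. The other labelled sites, of Junb, Fosl2, Atf3 and Jund, had 1.33 to 1.62.

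The TEAD peaks were next divided by when they were called. All 10 TEAD peaks of the AP-1 windows in WT livers overlapped a peak at 3 d and at 7 d. Of the 73 peaks at 7 d, 11 were constitutive, meaning that they overlapped a WT peak (15.1%, 8.63% to 25.0%), 44 were absent from the WT list and present at 3 d (60.3%, 48.8% to 70.7%), and 18 were called at 7 d alone (24.7%, 16.2% to 35.6%). Over all TEAD peaks at 7 d, these shares were 14.1%, 57.2% and 28.7%, each inside the interval of the AP-1 windows. Conversely, 10 of the 65 peaks at 3 d were called at 3 d alone (15.4%, 8.58% to 26.1%), against 23.5% of all 3 d peaks. By window, peaks called at 7 d alone made up 4 of 10 for Fos, 3 of 4 for Jdp2 and both for Batf. They made up 2 of 16 for Junb and 0 of 14 for Jund.

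Promoters were examined separately, defined around any start of the gene, with 2000 bp before and 1000 bp after it. In WT livers, Atf3 alone of the 10 genes had a TEAD peak at its promoter, against 8.69% of all protein-coding genes. At Fosb, the intronic WT peak ended 90 bp short of this interval. At 3 d, 7 of 10 had one, against 38.9% of all genes, and these were Fos, Fosb, Fosl2, Jun, Junb, Jund and Atf3. At 7 d, Jdp2 joined them, giving 8 of 10 against 37.6% of all genes. Fosl1 and Batf had none. A YAP peak at the promoter was called for 1 of 10, Atf3, against 1.04% of all genes. Most promoter peaks were modest in height. At 7 d, the highest promoter peak had a pileup of 121 at Atf3 and 69 at Fosb, and between 32 and 55 at Fos, Fosl2, Jun, Junb, Jund and Jdp2.

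To show what the strongest promoter peaks hold, 151 bases around their 7 d summits are printed in the same way, with the TEAD motif, the AP-1 motif TGANTCA or the CRE motif in capitals. The peak of Atf3 was printed above with its YAP site, and those of Fos, Jun and Jund overlap annotated UTRs and are not printed.
Fosb, chr7:19894038-19894188: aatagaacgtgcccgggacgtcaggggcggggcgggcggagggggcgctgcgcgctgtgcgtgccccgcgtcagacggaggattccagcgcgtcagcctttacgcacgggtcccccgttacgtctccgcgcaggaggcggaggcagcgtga
Fosl2, chr5:32438124-32438274: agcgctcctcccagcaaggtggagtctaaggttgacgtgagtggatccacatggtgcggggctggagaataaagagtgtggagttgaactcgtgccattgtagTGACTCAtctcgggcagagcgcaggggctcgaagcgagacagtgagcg
Junb, chr8:87504421-87504571: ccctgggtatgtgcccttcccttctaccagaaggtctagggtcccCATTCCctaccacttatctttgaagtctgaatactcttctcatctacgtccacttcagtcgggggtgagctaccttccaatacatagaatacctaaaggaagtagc
Jdp2, chr12:86940184-86940334: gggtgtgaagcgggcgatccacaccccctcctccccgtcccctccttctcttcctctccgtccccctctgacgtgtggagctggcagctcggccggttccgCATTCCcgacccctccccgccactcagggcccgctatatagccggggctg

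The printed sequence of Fosl2 held TGACTCA, a match to the AP-1 motif, centred 31 bases from the TEAD summit. Those of Junb and Jdp2 each held 1 TEAD motif, centred 27.5 and 28.5 bases from the summit. The printed sequence of Fosb held none of the 3 motifs, while a weaker promoter peak 472 bp from its start, with a pileup of 21, had a TEAD motif within 100 bp of its summit. In the unprinted Jund sequence, a CRE motif was centred 39.5 bases from the summit.

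Over all 73 TEAD peaks of the AP-1 windows at 7 d, the TEAD motif was within 100 bp of the summit in 19 (26.0%, 17.3% to 37.1%), against 35.2% of all TEAD peaks at 7 d. The AP-1 motif was found in 8 (11.0%, 5.66% to 20.2%), against 8.71%. The CRE motif was found in 2, both in the Jund window, against 0.698%. One of these was at the Jund promoter, and the other was 46.7 kb from the Jund start, in an intron of Pde4c. The motifs were searched on both strands in windows of 201 bases, and neither TGANTCA nor TGACGTCA contains the other. The peaks with an AP-1 motif were spread over 7 windows: 1 each for Fosb, Fosl1, Junb, Atf3, Batf and Jdp2, and 2 for Fosl2. None of these 8 peaks overlapped a YAP peak. Over all TEAD peaks at 7 d, 145 of the 3391 with an AP-1 motif did. The motif was in 10.4% of all TEAD peaks with a YAP peak and in 8.64% of those without. The empty count therefore does not set the AP-1 windows apart. Around the YAP summits, the TEAD motif was found in 5 of 6 (83.3%, 43.6% to 97.0%), against 59.0% of all YAP peaks at 7 d, and the AP-1 motif in 0 of 6, against 10.6%. With 6 sites, the interval for 0 of 6 reached 39.0% and included this background.

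Finally, 3 wider groups of genes around AP-1 were counted in the same way. Of 16 other basic leucine zipper genes, 4 had a YAP peak in the window at 7 d, as did 3 of 17 genes for kinases and for SRF and its partners, which act upstream of AP-1, and 2 of 14 other immediate-early genes, against 10.8% of all windows. None of the 3 groups had a YAP peak in WT livers or at 3 d. Each of the 47 windows held a TEAD peak at 3 d and at 7 d, against 75.3% and 76.9% of all windows, and 26 did in WT livers, against 37.8%. At 7 d, TEAD was found at 12 of 16, 11 of 17 and 10 of 14 promoters, against 37.6% of all genes. The highest TEAD peak was in the top 5% of the list in 5 of 16, 4 of 17 and 3 of 14 windows, against 15.2% of all windows.

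The YAP peaks of these groups were lower than most of those at AP-1 genes. Among the leucine zipper genes, Mafk, a small MAF protein gene, had a YAP peak inside the gene, 406 bp from an annotated start, with a pileup of 30 and rank 588. Nfe2l2, which encodes the antioxidant regulator NRF2, had a peak 18.4 kb upstream with a pileup of 22. In the windows of Creb1 and Maf, the peaks were 85.0 kb and 49.5 kb from the start, with pileups of 26 and 20. The peak in the Creb1 window was 546 bp from the start of another gene, Mettl21a. Among the upstream genes, Mapk8, which encodes the JUN kinase JNK1, had an intronic peak with a pileup of 31 and rank 520, 1.2 kb from an annotated start. The windows of Map3k1 and Elk4 held peaks of 23 and 25, at 47.8 kb and 37.6 kb. The peak in the Elk4 window was 610 bp from the start of Slc45a3. Among immediate-early genes, Btg2 had a peak of 24 at 20.4 kb and Ier5 had 25 at 24.6 kb. The start nearest to the peak in the Btg2 window was that of Gm8618, 9.85 kb away. These 9 pileups ran from 20 to 31, against 27 to 50 at the 6 AP-1 sites and a median of 29 over all YAP peaks at 7 d.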

How the data were processed

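The study profiled YAP and TEAD by ChIP-seq in 19 liver samples, grouped by the sample labels. The authors masked low-quality bases, aligned reads to mm9 with BWA 0.6.2, merged each group's replicates, removed duplicates and ran MACS 2.0.9 (p-value limit 1e-05) against 1 published control of 167176362 tags. As deposited, pileup is a signal (fragments over the summit), fold enrichment is a ratio to local background, and the −log10 p-value is the caller's. A longer fragment length widens peaks, so no ratio to WT pileups was computed.

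The members and the wider lists were chosen with earlier results of these data known. Named peaks were every YAP peak in a member window, the highest TEAD peak per member and list, and TEAD peaks at member promoters. Peaks 11.0, 11.5 and 47.9 kb from Fos, 2.0 and 3.0 kb from the start of Junb and at the Pde4c promoter were named after their values were seen. GENCODE for NCBIM37 gave genes and starts, and sequences came from that assembly (pysam 0.24.0, scipy 1.17.1). Peaks off the main chromosomes were left out of the motif counts. Peaks were shared when they overlapped by 1 bp. Ratio intervals are exact binomial and share intervals Wilson, both for counting error only. Overlap queries were tested on simulated data. For Atf7, which has 2 annotated entries, the longer was used. Alternatives are given in the closing section.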

Additional observations from a re-analysis of the deposited data

How the results depend on the processing

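The 19 results were recomputed under 94 alternatives in all. The value stayed within 1.5 times the reported one (within 10% for the median ratio) in 78. These include all alternatives for the YAP counts in WT livers and at 3 d, which were empty under every setting. The windows with a YAP peak at 7 d numbered 5 of 10 with a flank of 20 kb (without Jund), 7 with 100 kb (with Batf, whose window then reached the site in Jdp2) and 4 when the nearest protein-coding start had to be that of the gene (without Junb and Jund), against 6.33% and 17.4% of all windows for the 2 flanks. Counts of TEAD peaks followed the window and the cutoff by construction. With a flank of 20 kb there were 6, 39 and 45 across the WT, 3 d and 7 d lists. With 100 kb there were 108 at 3 d and 123 at 7 d. Counting only peaks nearest to the gene's own start gave 5, 29 and 39. At least 5-fold enrichment left 6 in WT livers and 37 at 3 d. With only the strongest 5695 peaks of every TEAD list, 11 remained at 3 d and 9 at 7 d, in 6 windows at 7 d, and the constitutive peaks at 7 d numbered 5. They numbered 7 when summits had to be at most 100 bp apart. The median ratio of 7 d to 3 d became 1 once divided by the median of all shared peaks.

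No paired analysis was possible because each list stands for a whole group and carries no replicate numbers, and leaving out each replicate was not possible for the same reason. The number of tags in each merged library limits which weak peaks were called.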
